A study of Rattus norvegicus with 6 samples.

Results

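Chemerin, its receptor and 7 other genes of retinoid handling were followed in RNA from the tip of the rat kidney inner medulla (IM), the innermost part of the organ. The set held Rarres2 (chemerin), Rarres1, Cmklr1, Rbp4, Crabp1, Crabp2, Aldh1a1, Aldh1a2 and Stra6. They were taken by name and made up 9 of the 27321 rows of the deposited table. The names had been chosen from results of the same contrast of STZ with control libraries, so their values are given as a description. There were 3 control libraries, from rats given vehicle, and 3 libraries from rats given streptozotocin (STZ), a toxin of the insulin-producing beta cell, at 62.5 mg/kg into the tail vein. All were male Sprague-Dawley rats aged 3 months, and tissue was taken 15 days after the injection. Diabetes was judged from blood glucose the day after the injection. The labels number the libraries of each group but do not say that each came from a single rat, so p-values measure only the spread between these samples. Rarres2 had no row of its own, since it was counted in a single row with the overlapping gene Lrrc61, a leucine-rich repeat protein. Every Rarres2 value below is therefore that of the shared row, and the reads of the 2 genes cannot be told apart.

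Chemerin is a secreted protein made as an inactive precursor. Proteases of the clotting, plasmin and leukocyte systems trim its tail, and the trimmed form attracts macrophages, dendritic cells and natural killer cells through the receptor Cmklr1. Retinol, or vitamin A, travels in blood bound to Rbp4 and can enter cells through Stra6. Dehydrogenases oxidize it to retinal, Aldh1a enzymes make retinoic acid from retinal, Crabp proteins carry the acid inside the cell, and Cyp26 enzymes destroy it. The acid acts by way of nuclear receptors that bind DNA at repeated hexamers. Rarres1 and Rarres2 owe their names to their induction by a retinoid in skin.

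The promoters of the 3 chemerin and retinoid-responder genes whose control and STZ values did not overlap outside the lowest range of counts are shown first, because nuclear receptors of retinoic acid bind such sequences. Each line is the 250 bases before the RefSeq start of the gene on the GRCr8 build, read 5′ to 3′ on the strand of the gene. Capitals mark the hexamer AGGTCA or one of its variants, which were GGGTCA, then also AGTTCA, and finally GGTTCA. They were searched on both strands, and other nuclear receptors bind overlapping hexamers.
Rarres2, chr4:78856409-78856658, minus strand: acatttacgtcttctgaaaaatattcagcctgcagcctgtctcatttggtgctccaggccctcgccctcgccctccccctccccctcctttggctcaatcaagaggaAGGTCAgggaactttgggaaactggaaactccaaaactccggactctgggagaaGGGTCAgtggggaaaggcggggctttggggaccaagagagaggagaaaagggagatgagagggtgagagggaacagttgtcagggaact
Rarres1, chr2:154094022-154094271, minus strand: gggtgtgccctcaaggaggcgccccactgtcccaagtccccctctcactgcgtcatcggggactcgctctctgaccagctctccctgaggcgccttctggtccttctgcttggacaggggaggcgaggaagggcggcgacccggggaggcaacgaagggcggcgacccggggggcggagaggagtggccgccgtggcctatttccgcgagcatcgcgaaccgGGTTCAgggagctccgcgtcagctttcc
Cmklr1, chr12:48680262-48680511, plus strand: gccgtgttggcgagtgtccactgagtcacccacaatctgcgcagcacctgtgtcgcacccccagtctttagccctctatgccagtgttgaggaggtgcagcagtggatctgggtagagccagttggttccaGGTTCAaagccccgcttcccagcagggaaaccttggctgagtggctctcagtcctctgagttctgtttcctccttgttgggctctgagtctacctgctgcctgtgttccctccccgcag
The Rarres2 promoter held AGGTCA from 143 and GGGTCA from 89 bases before the start. GGTTCA lay 28 bases before the start of Rarres1 and 119 bases before that of Cmklr1. In windows of 300 bases, which also take in the first 50 bases of the transcript, 5 of the 9 genes held at least 1 hexamer, compared with 44.4% of the 33469 promoters of this length in RefSeq. Beside the 3 shown, they were Aldh1a1, whose control and STZ values overlapped, and Stra6, which never exceeded 3 reads. Rbp4, whose control and STZ values also did not overlap, at 5 to 8 reads per library, held no hexamer. The Rarres2 values are those of the row shared with Lrrc61, whose promoter is not shown. Because the 3 shown were picked by their values, whether hexamers go with a change was not tested. At least 2 hexamers were found in 1 of the 9 genes and in 13.5% of all promoters. None of the 9 held a direct repeat of these hexamers spaced by 1, 2 or 5 bases, arrangements found in 0.233%, 0.17% and 0.382% of all promoters. A match describes the letters of the window and is not a measured binding site.

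The deposited values are reads per row divided by a size factor for each library, called normalized counts below. The libraries held between 3412311 and 5575171 reads on rows, and 1 read stood for 0.763 to 1.11 normalized counts. Background was read from 835 olfactory receptor genes, whose 95th percentile was 2.05, 6.33 and 10.02 normalized counts in replicates 1, 2 and 3 of control, and 1.86, 5.93 and 9.03 in those of STZ. It was highest in replicate 3 of both groups. Lane 3 carried the whole control group while lanes 7, 6 and 8 each carried 1 STZ library, and the effects of lane and STZ cannot be told apart. Levels were not compared between genes, because the values are not divided by transcript length. Of the markers of collecting duct principal cells, which define this tissue, all 10 were measured, and their summed level was 33380 to 55472 normalized counts in control against 43352 to 82686 in STZ libraries. The largest share of these counts came from Fxyd4.

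**Figure D1:**
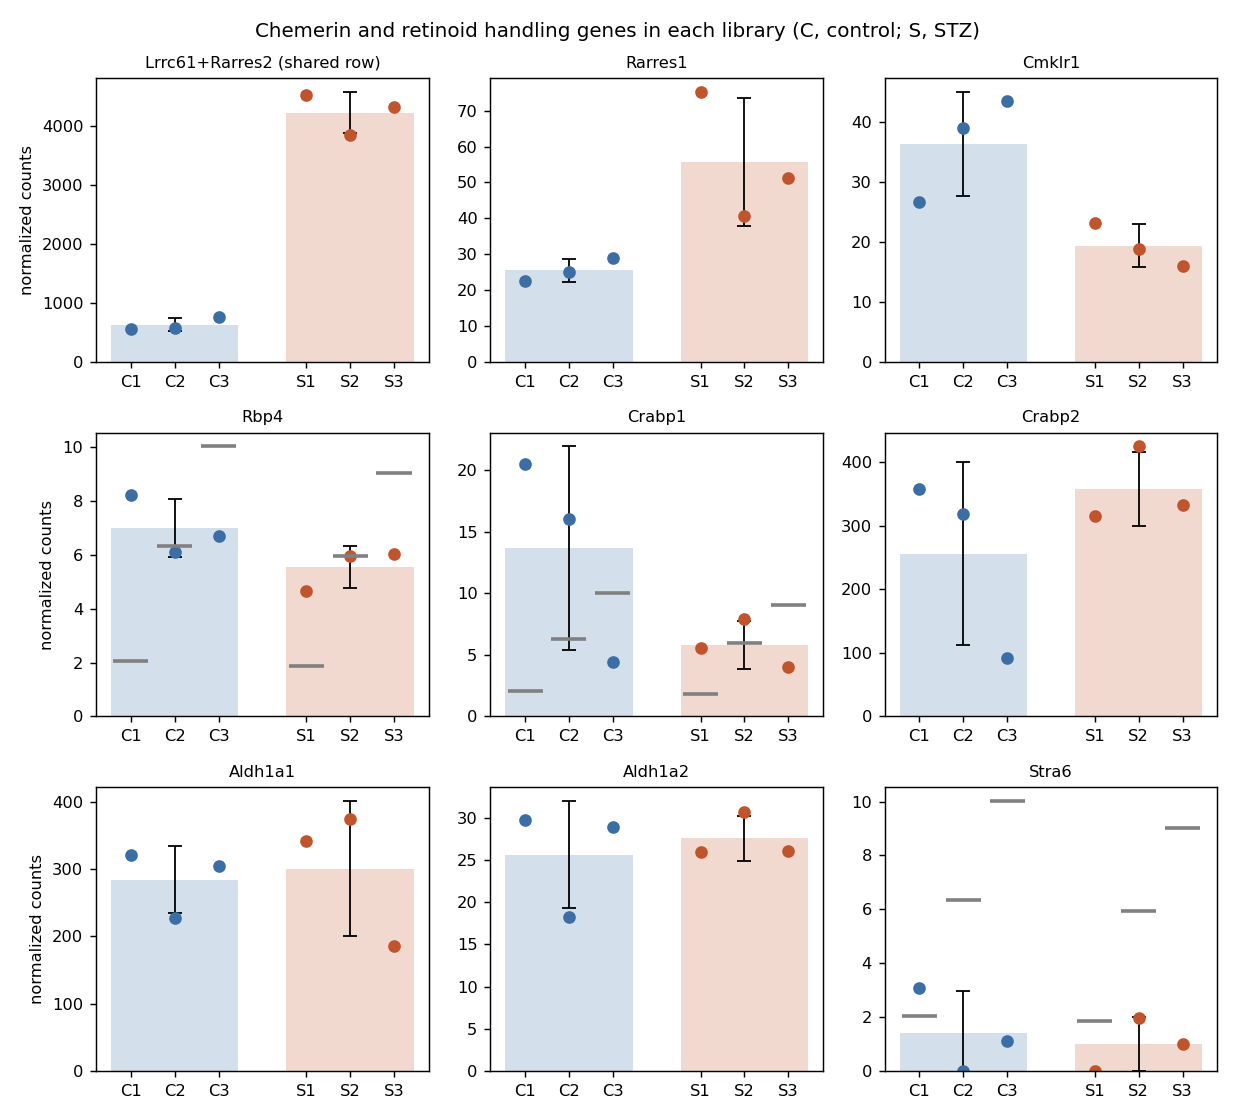
Normalized counts (vertical axis, linear, from 0) of the 9 genes in control (C1 to C3, blue) and STZ libraries (S1 to S3, orange), with the bar at the group mean and the error bar at 1 SD (n = 3). Grey dashes in the panels of Rbp4, Crabp1 and Stra6 mark the olfactory receptor background of each library. The shared Lrrc61+Rarres2 row runs from 3837 to 4521 in STZ libraries, all above the control libraries.

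The chemerin row stood far above its control level in every STZ library. Lrrc61+Rarres2 lies on chromosome 4 of rn4, from 76640814 to 76662465. Its normalized counts were 558, 574 and 754 in replicates 1, 2 and 3 of control, compared with 4521, 3837 and 4313 in those of STZ. The lowest STZ library lay far above the highest control library, and the 3 STZ libraries lay close together. The means were 629 ± 109 and 4223 ± 351 (SD, n = 3 each), with a ratio of means of 6.72, and the log2 fold change was 2.76 (SE 0.19) by limma on log2(normalized count + 1). By the size of its increase the row was number 23 from the top among the 13486 rows tested, those whose mean was 5 or more. Between 544 and 753 reads in control and between 3879 and 4869 in STZ libraries stood behind these values, so counting alone would give a coefficient of variation of 3.90% and 1.52%. The observed one was 17.3% in control and 8.31% in STZ libraries. In whole tissue, more cells that make a transcript and more RNA in each of them cannot be told apart, for this row and for every other.

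The rows beside it on the chromosome did not stand out in the same way. Atp6v0e2, a proton pump subunit whose row ends 15062 bases before the shared row, differed by −0.05 on the log2 scale (limma SE 0.19, adjusted p = 0.952). Its values were 880, 961 and 676 in control and 839, 767 and 793 in STZ replicates, and the groups overlapped. Repin1, the next row on the other side, stayed at or under 3 reads in all 6 libraries. A further row, named after the shared row and Gimap9, held 1 read over all libraries. Its coordinates, 76640814 to 76768388, take in the shared row itself, so its count is not read as that of the flanking stretch.

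The 3 rows whose profile over the 6 libraries lay nearest to that of the chemerin row were CREM_RAT, Tm4sf20 and Upk3a. Nearness was the root mean square difference of log2(normalized count + 1), each row centred on its own mean, among 8872 rows of single genes with a mean of at least 20. The differences were 0.301, 0.324 and 0.326, against a median of 1.42 over all these rows. CREM_RAT, which carries the name of a transcription factor of the cAMP response, had 907, 867 and 924 normalized counts in control and 4284, 4102 and 4170 in STZ libraries. Tm4sf20, a membrane protein of the tetraspan type, had 5.13 to 6.10 in control and 33.1 to 57.4 in STZ libraries. Upk3a, a protein of the urothelial plaque, had 27.7, 28.2 and 50.1 in control and 332, 367 and 333 in STZ libraries. All 3 had groups that did not overlap, as their likeness to the chemerin row requires. Of the 6 urothelial markers measured 2, Upk1b and Upk3a, were higher in STZ libraries at an adjusted p of 0.0489 and 0.000117 by limma, and the other 4, Upk1a, Upk2, Upk3b and Trp63, did not pass. The summed level of the 6 was 90.8 to 142 in control against 441 to 529 in STZ libraries, and without Upk3a, which is also 1 of the rows named above for its likeness, it was 62.5 to 92.4 against 109 to 162. Their part in the chemerin value was not tested. Adipocyte markers, of a cell type that makes chemerin, had a summed level of 402 to 1050 in control against 466 to 614 in STZ libraries. Most of it came from Fabp4. Lep was at 0 in all libraries, and Cfd and Plin1 had group means of 0.51 and 2.48 in control and 0.31 and 0.335 in STZ libraries. The 2 markers tested, Adipoq and Fabp4, went opposite ways. Adipoq had group means of 5.34 in control and 9.79 in STZ libraries, with overlapping groups. Its log2 difference was 1.02 (limma SE 0.69, adjusted p = 0.563), and that of Fabp4 was −0.26 (limma SE 0.31, adjusted p = 0.820). Of these 2, 0 passed by limma, edgeR or DESeq2, or at an unadjusted p under 0.05. Their part in the chemerin value was not tested either.

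**Figure D2:**
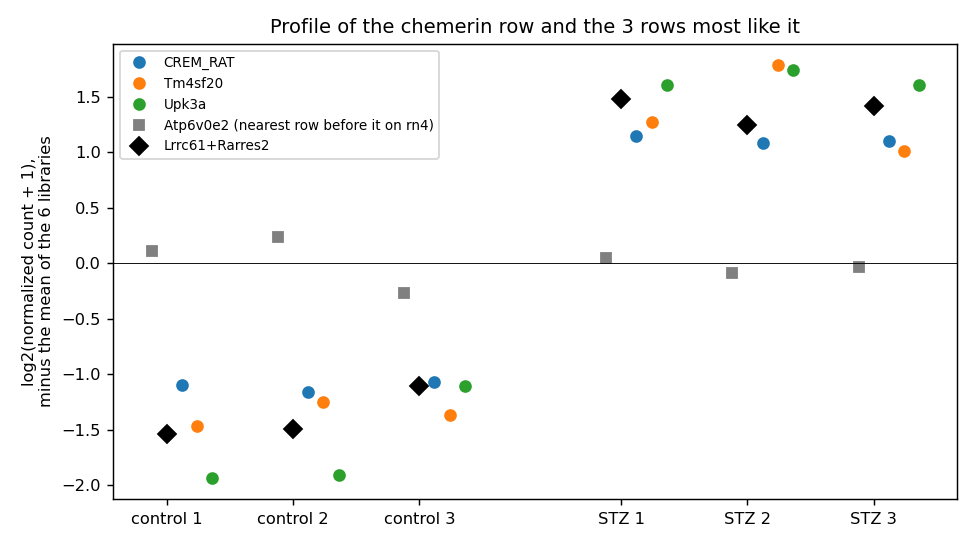
log2(normalized count + 1) minus the mean of the 6 libraries (vertical axis) for the chemerin row (black diamonds), the 3 rows nearest to it (circles) and Atp6v0e2, the nearest row before it on rn4 (grey squares), in each control and STZ library. The 4 coloured and black rows lie below 0 in all control and above 0 in all STZ libraries, while Atp6v0e2 lies on both sides of 0 in either group.

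Cmklr1, the signalling receptor of chemerin, had its values on the opposite side. On chromosome 12 between bases 44056526 and 44061043, it had 26.7, 38.9 and 43.4 normalized counts in control and 23.2, 18.8 and 16.1 in STZ replicates 1, 2 and 3. The highest STZ library lay just below the lowest control library, so the groups did not overlap but came close. The means were 36.3 ± 8.67 and 19.4 ± 3.61 (SD, n = 3 each), giving a log2 fold change of −0.86 (SE 0.30), which did not pass the threshold of an adjusted p of 0.05. It rested on between 16 and 51 reads per library, for which counting alone would give a coefficient of variation of 16.1% in control and 22.4% in STZ libraries, against 23.9% and 18.6% observed. Without control replicate 3 the log2 fold change was −0.72, and without both libraries numbered 3 it was −0.60. Of 10 markers of macrophages, which carry this receptor, 8 were measured, with a summed level of 817 to 2227 in control against 1214 to 2021 in STZ libraries. Of these 8, 5 had a log2 difference above 0 and 3 below 0, with a median of 0.14. By limma or edgeR 0 of them passed, 1 passed by DESeq2 and 1 had an unadjusted p under 0.05 by limma. The latter was Cd14, with 216, 241 and 223 normalized counts in control and 148, 136 and 135 in STZ replicates, a log2 difference of −0.70 (limma SE 0.18, adjusted p = 0.0751). Most of the summed level came from Lyz2, whose groups overlapped. The markers of endothelium, which can also carry the receptor, had a summed level of 7044 to 9167 in control against 3704 to 4110 in STZ libraries, with the largest share of the counts from Emcn. Of the 6 measured, 2 were lower by limma, Emcn and Plvap, and 4 did not pass. Among those 4, Tek and Cdh5 had every STZ value below and Tie1 every STZ value above the control values, with log2 differences of −0.61, −0.56 and 0.55, while Pecam1 overlapped at 0.04. Their part in the Cmklr1 value was not tested.

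Ccrl2, a receptor that binds chemerin and presents it without signalling, came from the list of other chemerin receptors. It had 27.7, 22.1 and 28.9 normalized counts in control and 10.2, 8.90 and 14.1 in STZ replicates. All STZ values lay below all control values. The log2 fold change was −1.19 (limma SE 0.34, adjusted p = 0.116), which did not pass. It was the only gene tested of that list of 2, and neither edgeR nor DESeq2 called it, although its unadjusted p was under 0.05.

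Rarres1, a membrane protein named for its response to retinoids, had higher values in every STZ library. On chromosome 2 between bases 157332212 and 157367140, it had 22.6, 25.2 and 28.9 normalized counts in control and 75.2, 40.6 and 51.2 in STZ replicates 1, 2 and 3. The groups did not overlap, the control libraries lay close together and STZ replicate 1 was highest. The means were 25.6 ± 3.21 and 55.7 ± 17.8 (SD, n = 3 each), with a ratio of means of 2.18. The log2 fold change was 1.05 (SE 0.29), and without STZ replicate 1 it was 0.82. The row did not pass the threshold in the fit across all rows, nor under any of the 19 alternatives. Gfm1, a mitochondrial elongation factor and the nearest row before it, also had its STZ values above all control values, from 145 to 208 against 106 to 135, with a log2 difference of 0.46 (limma SE 0.21, adjusted p = 0.346). D3ZV75_RAT, the nearest row after it, overlapped between the groups, with a log2 difference of 0.49 (limma SE 0.30, adjusted p = 0.506). Lxn, a carboxypeptidase inhibitor related to Rarres1, had a log2 fold change of 0.23 (limma SE 0.19, adjusted p = 0.668), and Agbl2, a carboxypeptidase that binds Rarres1, one of 0.01 (limma SE 0.34, adjusted p = 0.994). By limma, edgeR and DESeq2, and at an unadjusted p under 0.05 by limma, 0 of these 2 passed.

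**Figure D3:**
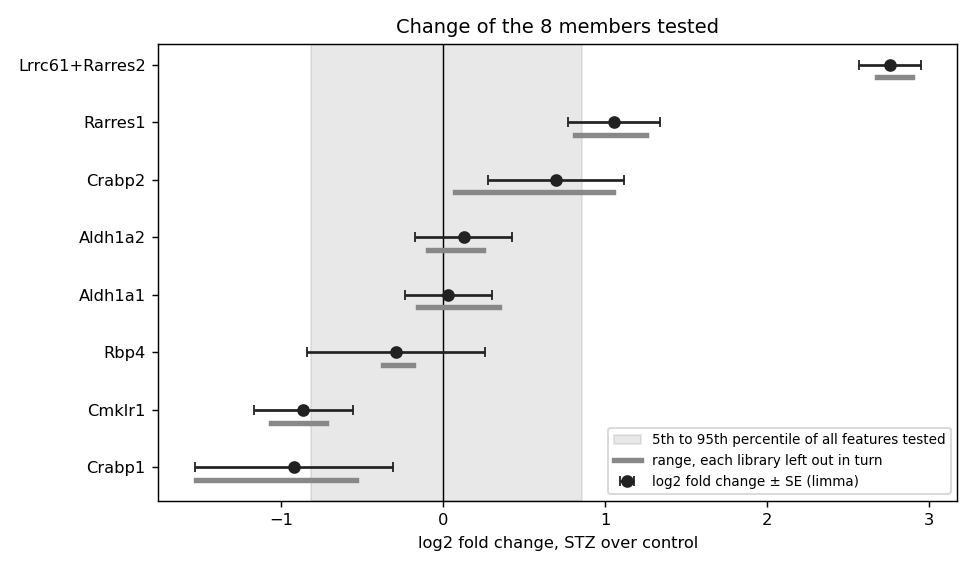
log2 fold change, STZ over control (horizontal axis), of the 8 genes tested, with error bars of 1 SE by limma. The grey bar under each point spans the values with each library left out in turn, and the shaded band holds the 5th to 95th percentile of all rows tested, from −0.82 to 0.86. Lrrc61+Rarres2 and Rarres1 lie above the band, and Cmklr1 and Crabp1 below it.

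The transcripts of the retinol carrier and its receptor were at the edge of detection in the IM tip. Rbp4, the plasma carrier of retinol, on chromosome 1 between bases 242443797 and 242450998, had 8.20, 6.10 and 6.68 normalized counts in control and 4.64, 5.93 and 6.02 in STZ replicates. All STZ values lay below all control values, but the highest STZ and the lowest control value, 6.02 and 6.10, were closer than the value of 1 read. Each library held between 5 and 8 reads, and the level was above the olfactory receptor background in 2 of 6 libraries. The log2 fold change was −0.29 (SE 0.55), so a difference was not detectable at this depth. Stra6, the membrane receptor for Rbp4, on chromosome 8 between bases 61920764 and 61939790, had 3, 0 and 1 reads in control and 0, 2 and 1 reads in STZ replicates. It thus never exceeded 3 reads, was above the olfactory receptor background in 1 library, and was the single member left out of the fit, for which its mean was too low.

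The carriers of retinoic acid inside the cell differed in how much the libraries varied. Crabp2, which hands the acid to its nuclear receptor, on chromosome 2 between bases 180029800 and 180034174, had 357, 319 and 91.3 normalized counts in control and 316, 424 and 332 in STZ replicates. Control replicate 3 stood alone at the bottom, with 82 reads against 331 to 429 in the others, and the groups overlapped. The means were 256 ± 144 and 357 ± 58.5 (SD, n = 3 each), and the log2 fold change was 0.70 (SE 0.42). Without control replicate 3 it was 0.07 (SE 0.21). That library had the fewest reads on rows and the highest olfactory receptor background, and their part in its low value was not tested. A row named after Crabp2 and Robld3 held 1 read over all libraries. Its coordinates, 180029800 to 180668729, take in Crabp2 itself, so its count is not read as that of the flanking stretch.
Crabp1, which is thought to bind retinoic acid and pass it to degradation, had few reads. On chromosome 8 between bases 58317336 and 58325375, it had 20.5, 16.0 and 4.45 normalized counts in control and 5.57, 7.91 and 4.02 in STZ replicates. Control replicates 1 and 2 were high, and control replicate 3 lay among the STZ libraries. The means were 13.7 ± 8.28 and 5.83 ± 1.96 (SD, n = 3 each), and the log2 fold change was −0.92 (SE 0.61). Without control replicate 3 it was −1.52, and without control replicate 1 it was −0.54. Replicate 3 of both groups fell under the olfactory receptor background, and the level exceeded it in the 4 other libraries.

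Aldh1a1 and Aldh1a2, the enzymes of the set that make retinoic acid, had nearly equal means in the 2 groups. Aldh1a1, on chromosome 1 between bases 223731658 and 223773219, had 321, 227 and 304 normalized counts in control and 342, 374 and 186 in STZ replicates. The highest and the lowest value both came from STZ libraries. The means were 284 ± 49.8 and 300.4 ± 101 (SD, n = 3 each), giving a log2 fold change of 0.03 (SE 0.27), whose sign turned with single libraries left out, from −0.16 without STZ replicate 2 to 0.35 without STZ replicate 3. Aldh1a2, on chromosome 8 between bases 75692098 and 75771159, had 29.7, 18.3 and 28.9 normalized counts in control and 26.0, 30.7 and 26.1 in STZ replicates. Both groups shared a range, and the log2 fold change of 0.13 (SE 0.30) was −0.090 without control replicate 2. Between 24 and 31 reads per library stood behind Aldh1a2, so a small change was not detectable at this depth.

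Of the 9 genes, 8 reached a mean of 5 normalized counts and were tested with all other rows. The chemerin row passed in the direction of STZ, as did 1.17% of the 13486 rows tested, and no gene of the set passed in the other direction, as did 0.927% of the rows. With either direction counted, 2.10% of the rows passed. The groups did not overlap in 2 of the 8 with STZ higher and in 2 with STZ lower, against 10.1% and 10.3% of the rows, or 20.3% in either direction. The median log2 fold change was 0.08 over the 8 and 0.01 over all rows tested. Because the genes were picked with these values known, nothing is read from the counts. Among the rows on either side of the 9 genes, the smallest adjusted p by limma was 0.249, for WDR61_RAT, the nearest row before Crabp1. Levels were above the olfactory receptor background in all 6 libraries for 6 of the 9.

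Other genes of the pathways were taken by role, in lists of 89 genes drawn up with earlier results of these data known. Of the 89, 66 had a row and 44 reached the minimum mean. By limma 1 was higher and 1 lower in STZ libraries at an adjusted p under 0.05, beside 1.17% and 0.927% of all rows tested. Their median log2 fold change was −0.02, against 0.01 for all rows, with 20 above and 24 below 0. At an unadjusted p under 0.05 there were 7 of the 44, beside 14.7% of all rows. These counts are given as a description.

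The gene that rose was Lpl, lipoprotein lipase, which frees fatty acids and also splits retinyl esters of dietary lipid particles. Lpl had 166, 261 and 171 normalized counts in control and 880, 567 and 419 in STZ replicates 1, 2 and 3. The groups did not overlap, and STZ replicate 1 was highest. The log2 fold change was 1.60 (limma SE 0.28, adjusted p = 0.017), and the call was lost without control replicate 1 (adjusted p = 0.0577) or STZ replicate 2 (adjusted p = 0.0574), and without the trend (adjusted p = 0.161). It was the only 1 called of 8 tested among retinol carriers, uptake and storage, whose median log2 fold change was 0.14.

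The gene that fell was Plat, tissue plasminogen activator, which makes the plasmin that can trim chemerin. Plat had 11051, 14469 and 9503 normalized counts in control and 4539, 4625 and 3861 in STZ replicates. The 3 STZ libraries lay close together, far below every control library. The log2 fold change was −1.41 (limma SE 0.23, adjusted p = 0.0125), and the call was lost without control replicate 2 (adjusted p = 0.0795) or STZ replicate 2 (adjusted p = 0.0517), and without the trend (adjusted p = 0.0993). Of the 6 endothelial markers measured, Emcn and Plvap were also lower, by log2 differences of −1.38 and −1.01. The 4 that did not pass were Tek at −0.61, Cdh5 at −0.56, Pecam1 at 0.04 and Tie1 at 0.55. Their part in the Plat value was not tested. Among the chemerin processing proteases it was 1 of 8 tested that passed, and the median of the 8 was −0.21. The leukocyte and mast cell proteases Prtn3 and Tpsab1, and Cpn2 of the same list, were at or under 3 reads in all libraries. Elane, another leukocyte protease, exceeded 3 reads in 2 libraries, with 4 in control replicate 3 and 5 in STZ replicate 3. Mast cell markers, 3 of which had a row, had none above 3 reads in any library.

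The 11 genes tested of retinol and retinal oxidation and reduction had a median log2 fold change of −0.06, and 0 passed by limma, edgeR or DESeq2, with 1 at an unadjusted p under 0.05 by limma. Adh5, an alcohol dehydrogenase, had from 516 to 816 normalized counts in control and from 587 to 685 in STZ libraries, and Dhrs3, which reduces retinal back to retinol, from 201 to 313 and from 258 to 438. Both overlapped between the groups, with log2 differences of −0.06 (SE 0.20, adjusted p = 0.953) and 0.40 (SE 0.24, adjusted p = 0.503) by limma.
For the degradation of retinoic acid, Cyp26b1 was the single gene tested of 3. It had 19.5, 10.7 and 10.02 normalized counts in control and 52.0, 15.8 and 23.1 in STZ replicates. STZ replicate 1 was highest, STZ replicate 2 lay below control replicate 1, and the log2 difference was 1.01 (limma SE 0.46, adjusted p = 0.337). By edgeR and DESeq2, 0 passed, while 1 had an unadjusted p under 0.05 by limma. Cyp26a1 exceeded 3 reads in 1 library.

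The nuclear receptors, their partners and coregulators gave 8 genes tested with a median log2 fold change of −0.05. By limma, edgeR and DESeq2, 0 passed, and 1 had an unadjusted p under 0.05 by limma. Ncoa1, a coactivator, had 105, 116 and 138 normalized counts in control and 142, 163 and 172 in STZ replicates, and Ncoa3, a related coactivator, had 112, 149 and 110.2 in control and 83.6, 86.1 and 96.4 in STZ replicates. Neither overlapped between the groups. Their log2 fold changes were 0.41 (SE 0.20, adjusted p = 0.371) and −0.46 (SE 0.21, adjusted p = 0.329) by limma.

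Genes known to respond to retinoic acid gave 9 genes tested, with a median log2 fold change of 0.15, 6 above and 3 below 0. None passed by limma, edgeR or DESeq2, and 1 had an unadjusted p under 0.05 by limma. This was Cyp26b1, the gene already given for the degradation of retinoic acid, at a log2 difference of 1.01. Tgm2, a transglutaminase, had from 928 to 1594 normalized counts in control and from 1113 to 1712 in STZ libraries, a log2 fold change of 0.11 (limma SE 0.24, adjusted p = 0.915). With that SE, a small shift of Tgm2 was not detectable with 3 libraries per group.

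**Figure D4:**
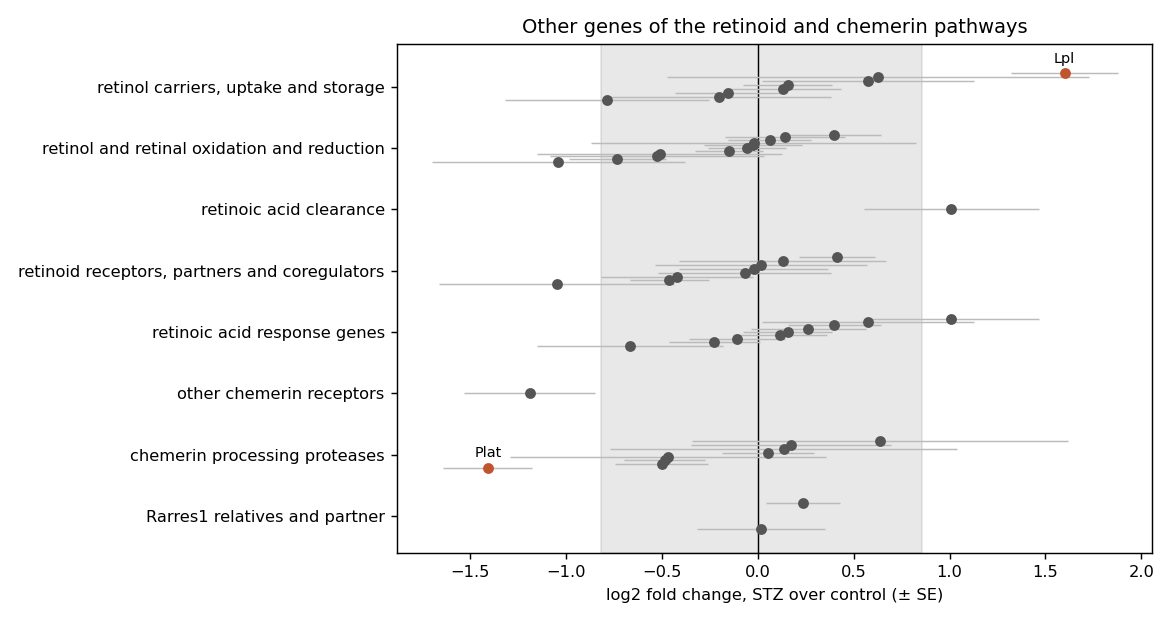
log2 fold change, STZ over control (horizontal axis), with SE by limma, of the genes tested in each list (vertical axis), a gene of 2 lists being drawn in both. Orange points had an adjusted p under 0.05, and the shaded band is the 5th to 95th percentile of all rows tested. Lpl lies at 1.60 and Plat at −1.41, and the other genes were not called.

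Markers of other cells of the kidney gave the setting of these values. Of intercalated cells 4 of 7 markers tested were lower in STZ libraries by limma, namely Atp6v1b1, Atp6v0d2, Atp6v1g3 and Slc4a1, and the summed level was 1217 to 2720 in control against 517 to 586 in STZ libraries. Of the thick limb and distal tubule 2 of 5 were lower, Umod and Egf. That list had a summed level of 1110 to 1920 in control against 231 to 601 in STZ libraries. Of interstitial fibroblasts 1 of 7 was higher, Pdgfra, and their summed levels overlapped, at 7605 to 9193 in control against 4900 to 10989 in STZ libraries. Among these 7, 4 had a log2 difference above 0 and 3 below 0, with a median of 0.05. Most of the summed level came from Dcn, whose groups overlapped. Of smooth muscle 1 of 2 was higher, Tagln. The other, Des, overlapped between the groups, with a log2 difference of −0.23 (limma SE 0.34, adjusted p = 0.858). Of the 5 genes of that list only these 2 were measured. In the proximal tubule list Slc34a1 and Slc5a2 were each counted in a row merged with other genes, as was Avpr2 in the principal cell list, so their reads are shared. By limma 0 of 10 passed for principal cells, with 5 at an unadjusted p under 0.05, 0 by edgeR and 2 by DESeq2. Of these 10, 9 had a log2 difference above 0 and 1, Hsd11b2, below 0 at −0.83, with a median of 0.28. For the thin limb 0 of 5 passed by all 3 tools and at an unadjusted p under 0.05, and for the proximal tubule 0 of 6 passed by all 3 tools, with 1 at an unadjusted p under 0.05. Whether these shifts take part in the values of the 9 genes was not tested.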

How the data were processed

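RNA was measured in 3 control and 3 STZ libraries, numbered within each group by the labels. Reads were aligned by the authors to rn4 with STAR 2.3.1t, uniquely mapped reads were counted per gene of Ensembl RGSC3.4, and the deposited signal is each count divided by a DESeq 1.16.0 size factor of its library. What program counted the reads, and whether by strand, is not given in the sources used here, so antisense genes and near copies of a gene may share or lose reads. Values were whole multiples of a step in 100.0% of cases (tolerance 0.001), which gave back whole reads. The cDNA was amplified by PCR with no molecular identifiers stated, so floors of 3 reads and counting errors cover counting alone.

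Rows with a mean of at least 5 were compared with limma 3.58.1 (R 4.3.3) on the log2 scale after adding 1, its prior following the mean level, with Benjamini-Hochberg adjustment over all 13486 rows. This scale understates the change of low genes. Other settings tried were a pseudocount of 0.5 or 5, a minimum mean of 1 or 20, no filter, equal totals, quantile normalization, no trend, robust moderation, the replicate block, edgeR 4.0.16, DESeq2 1.42.0 and each library left out in turn. Leaving out both libraries numbered 3, and the urothelial sum without Upk3a, were added after the data were seen. The fits were tested on simulated data.

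The 9 genes and the gene lists were chosen with earlier results of these data known. Named are the 9, their neighbours, the list genes that passed or, in lists without any, the 2 highest, and the rows most like the chemerin row. Of each cell type list the genes that passed are named. The rule also named the 2 with the most counts, left out where no result turns on them since counts are not comparable between genes, and other list members were named after their values were seen. List names were matched by symbol or by a RefSeq synonym. Of the list genes, Bco1 and Ctsl were found under older symbols and Ncoa2 in a merged row, as were the markers Avpr2, Slc34a1 and Slc5a2. Promoters of all 9 genes were matched by symbol in RefSeq (GRCr8); every other coordinate is that of rn4. List genes without a row were not analysed here. The values of 1 list gene that the rule would name are not reported here. Figures were made with Python 3.11.15 and matplotlib 3.10.9.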

Additional observations from a re-analysis of the deposited data

How the results depend on the processing

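The chemerin row was called under all 19 alternatives, with a log2 fold change between 2.68 and 2.89, and no other member was called where it was tested. Rbp4 and Crabp1 were not tested with a minimum mean of 20, and Stra6 was tested only with a minimum mean of 1 or without a filter. With each library left out in turn, the log2 fold change of Aldh1a1 ran from −0.16 to 0.35 and that of Aldh1a2 from −0.090 to 0.25, which turned their direction: Aldh1a1 without control replicate 2, STZ replicate 1 or STZ replicate 2, and Aldh1a2 without control replicate 2. Without both libraries numbered 3, chosen after seeing the data, they were 0.40 and 0.26. The other 6 members tested kept their direction. DESeq2 gave no adjusted p for Rbp4 and Crabp1. The number of rows called was 283, 522 with quantile normalization, 31 without the trend and 599 with DESeq2, and ran from 88 to 352 with each library left out: 88 without STZ replicate 2, 101 without control replicate 2, 141 and 163 without STZ replicates 1 and 3, 182 without control replicate 1 and 352 without control replicate 3. Of the list genes 2 were called, 0 without the trend (5 at an unadjusted p under 0.05 by limma), and from 0 to 2 with each library left out, with 0 without STZ replicate 2 (6 at an unadjusted p under 0.05) and 1 without control replicate 1 or 2. The cause was not tested. Groups left with fewer libraries were fitted with the spread limma pools over both.

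With the replicate block 561 rows were called. Deviations of same-numbered libraries correlated at 0.395, −0.061 and 0.323 for replicates 1, 2 and 3 across 9315 rows. The values for replicates 1 and 3 were the highest of all pairs of a control and an STZ library. Control replicate 2 correlated best with STZ replicate 1, at 0.107. The olfactory receptor background also rose with the number in both groups. The labels state no pairing, so the main fit left the block out, and whether same-numbered libraries share a source was not tested. The block changed no call of the members or list genes. Levels per length of coding sequence were not run, since no coding lengths were used here.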
